A study of Mus musculus with 51 samples.

Results

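The 10 genes described here are the homeobox genes Dlx1, Dlx2, Dlx3, Dlx4, Dlx5, Dlx6, Nkx2-1, Nkx2-5, Nkx6-1 and Nkx6-2, taken by name from a table of read counts over 24564 genes, in which all 10 had an entry. Neurons of the adult mouse midbrain were isolated by flow sorting, and their RNA was sequenced in bulk with Smart-seq2, which copies whole messenger RNAs from small amounts of material. Dopaminergic neurons (mDA) came from the strain DatCreEed and serotonergic neurons (5HT) from the strain SertCreEed, whose Cre names point to the dopamine and the serotonin transporter. In each strain, animals labelled PRC2 mutant were set against wt animals of the same strain label, and the question was what neurons express without a functional Polycomb repressive complex 2 (PRC2). The 51 libraries formed 8 groups: 10 mDA mutants and 9 mDA wt at 4 months, 8 mDA mutants and 8 mDA wt at 8 months, 4 5HT mutants and 4 5HT wt at 4 months, and 4 5HT mutants and 4 5HT wt at 8 months. Each library carried its own animal number. The labels do not state at what age Cre was active or which part of Eed was removed.

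PRC2 methylates a lysine on the tail of a histone and keeps developmental genes silent in cell types that do not use them, and Eed is a core subunit that reads the mark and activates the enzyme. DLX proteins are transcription factors encoded by convergently arranged gene pairs that share enhancers. Dlx1, Dlx2, Dlx5 and Dlx6 act in the embryonic ventral forebrain, where they drive the formation and migration of GABAergic interneurons, while Dlx3 and Dlx4 are best known from ectoderm, teeth, bone and placenta. NKX proteins carry the NK type of homeodomain. Nkx2-1 patterns the ventral forebrain, lung and thyroid, Nkx2-5 is a master factor of the heart, and Nkx6-1 and Nkx6-2 pattern the ventral hindbrain and spinal cord, with later roles in pancreatic beta cells and in myelinating glia. The name "forebrain homeobox genes" therefore covers only part of the 10.

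The 10 genes lie at 7 loci on 7 chromosomes. In GRCm38.p6 coordinates of RefSeq, Dlx1 (chr2:71528113-71533981, plus strand) and Dlx2 (chr2:71543408-71546754, minus strand) are 9.4 kb apart. Dlx3 (chr11:95120117-95125296, plus strand) and Dlx4 (chr11:95140447-95146294, minus strand) are 15.2 kb apart. Dlx6 (chr6:6863334-6867970, plus strand) and Dlx5 (chr6:6877801-6882068, minus strand) are 9.8 kb apart. In each pair the genes point towards each other. The Dlx1-Dlx2 pair lies 3.12 Mb from the Hoxd cluster, the Dlx3-Dlx4 pair 1.05 Mb from the Hoxb cluster and the Dlx5-Dlx6 pair 45.27 Mb from the Hoxa cluster. The NKX genes stand alone at Nkx2-1 (chr12:56531935-56536908), Nkx2-5 (chr17:26838664-26844988), Nkx6-1 (chr5:101659184-101664711) and Nkx6-2 (chr7:139579376-139582797), all 4 on the minus strand.

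The RefSeq promoter table for GRCm38.p6 matched 6 of the 10 genes, with 250 bases before the start of each. In 3 of them these bases held none of the gene's own annotated exons, and they are shown here because promoters dense in CG pairs are the kind that PRC2 often occupies. Dlx2 and Nkx2-1 are genes that rose in mutants, and Nkx6-2 is one that did not pass the test. Capitals mark each CG pair, and each sequence runs 5′ to 3′ on the gene's own strand, at chr2:71546755-71547004 for Dlx2, chr12:56536909-56537158 for Nkx2-1 and chr7:139582798-139583047 for Nkx6-2, all minus.
Dlx2: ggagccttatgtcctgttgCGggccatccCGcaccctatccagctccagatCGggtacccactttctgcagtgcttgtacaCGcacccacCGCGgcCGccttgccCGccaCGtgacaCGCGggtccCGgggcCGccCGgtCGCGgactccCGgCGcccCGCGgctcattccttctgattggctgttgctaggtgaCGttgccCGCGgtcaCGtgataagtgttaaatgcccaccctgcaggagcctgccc
Nkx2-1: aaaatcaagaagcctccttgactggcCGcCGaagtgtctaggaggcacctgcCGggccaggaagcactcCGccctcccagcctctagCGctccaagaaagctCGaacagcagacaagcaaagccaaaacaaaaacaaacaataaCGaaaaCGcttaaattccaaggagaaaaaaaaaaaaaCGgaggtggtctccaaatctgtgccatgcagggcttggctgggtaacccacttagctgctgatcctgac
Nkx6-2: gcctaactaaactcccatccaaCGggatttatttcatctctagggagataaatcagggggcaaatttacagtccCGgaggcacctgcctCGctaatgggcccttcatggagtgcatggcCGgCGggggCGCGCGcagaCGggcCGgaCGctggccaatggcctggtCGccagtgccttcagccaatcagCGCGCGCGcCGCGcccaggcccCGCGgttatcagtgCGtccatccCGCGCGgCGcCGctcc
The Dlx2 window held 24 CG pairs, the Nkx2-1 window 9 and the Nkx6-2 window 26. The 6 matched windows held 8 to 30, and the median over the 32851 promoters of the table was 6. Among the 6, the windows of Dlx1 and Nkx6-1, the latter with the 30, lay wholly in annotated exons of their own gene. The Nkx2-5 window held 43 such bases. The counts of Dlx2, which rose, and of Nkx6-2, which did not pass the test, were close. Whether the number of CG pairs bears on the change was not tested. The homeodomain core TAATTA, searched on both strands, was in 0 of the 6 windows and in 4.8% of all promoters. The NKX2 core AAGTG, also on both strands, was in 3 of the 6 (Dlx1, Dlx2 and Nkx2-1) and in 40.7% of all promoters.

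Library totals ran from 1644460 to 12250492 counts. Levels are CPM, counts scaled to a common library size after TMM normalization, and 3 counts stood for 0.238 to 1.86 CPM, so most wt values of these genes lie near what single reads can show. The mean of Eed was higher in mutants than in wt in both cell types at both ages, and edgeR called none of these differences. At 8 months it averaged 22.5 ± 9.36 CPM in mDA mutants and 13.4 ± 3.17 CPM in mDA wt (SD, n = 8 each), with an edgeR adjusted p of 0.271. At 4 months it averaged 23.6 CPM in mDA mutants and 14.1 CPM in mDA wt (edgeR unadjusted p = 0.0037, adjusted p = 0.114). In 5HT neurons of that age it averaged 24.9 CPM in mutants and 10.2 CPM in wt (edgeR unadjusted p = 0.0028, adjusted p = 0.554). A count over the whole gene does not see a deletion of unstated extent, so it checks no label. Summed markers of dopaminergic neurons stood at 3234 to 4498 CPM in mDA mutants at 8 months, against 5488 to 10211 CPM in mDA wt, and were above 0 for all 10 markers in every mDA group. In 5HT wt at 8 months the same sum stood at 3839 to 4206 CPM, so this sum is not particular to dopaminergic neurons. Summed serotonergic markers stood at 1263 to 1635 CPM in 5HT mutants at 8 months, against 5376 to 7005 CPM in 5HT wt, and at 37.1 to 132.1 CPM over all mDA libraries. In these bulk samples, fewer cells of a type and less RNA per cell cannot be told apart.

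At 8 months the summed level of the 10 genes was higher in every mutant library than in any wt library of the same cell type. Their summed level averaged 60.8 ± 14.5 CPM in mDA mutants, from 42.7 to 81.9 CPM, and 6.37 ± 3.41 CPM in mDA wt, from 2.36 to 12.6 CPM (SD, n = 8 each). In 5HT neurons it averaged 45.6 ± 7.30 CPM in mutants and 3.86 ± 0.683 CPM in wt (SD, n = 4 each). At least 9 of the 10 genes reached 3 counts in every mutant library of either cell type at 8 months. In wt at that age 1 to 7 genes did so in mDA libraries and 2 in each 5HT library.

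**Figure D1:**
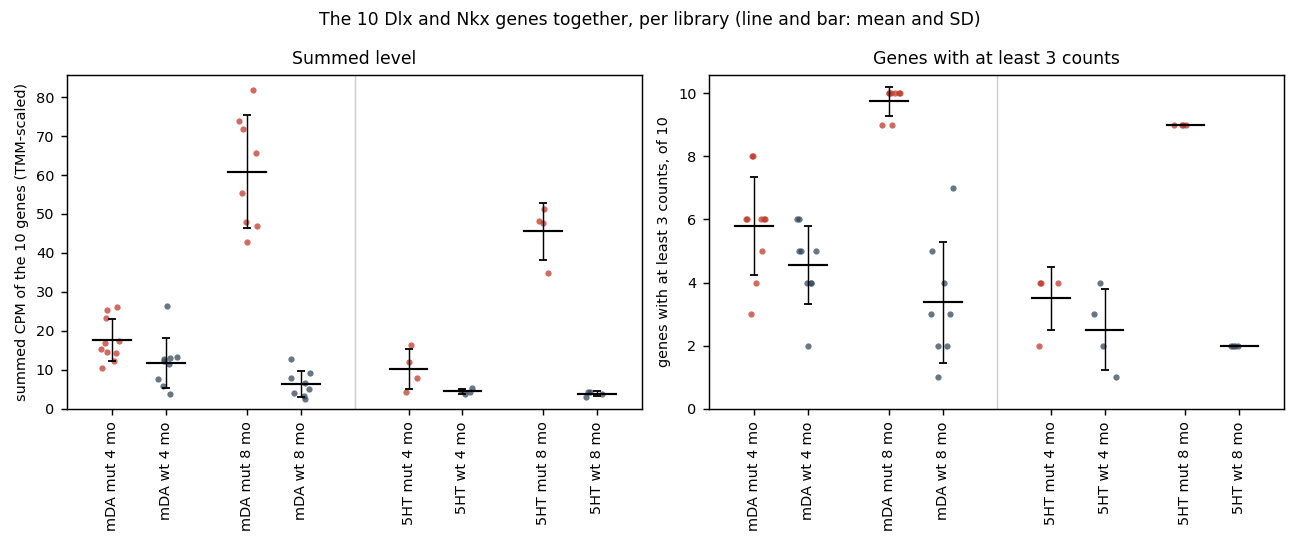
Summed level of the 10 Dlx and Nkx genes in CPM (left) and the number of them with at least 3 counts (right) in each library, by group (red, PRC2 mutant; grey-blue, wt), with lines and bars for the mean and SD. The 8 mDA mutants at 8 months lie at 42.7 CPM or above and the 4 5HT mutants at 34.9 CPM or above, while the 8-month wt libraries stay at 12.6 CPM or below.

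At 4 months the same sum averaged 17.6 ± 5.43 CPM in mDA mutants (n = 10) and 11.8 ± 6.49 CPM in mDA wt (SD, n = 9), and the groups overlapped. In 5HT neurons it averaged 10.1 ± 5.20 CPM in mutants and 4.45 ± 0.613 CPM in wt (SD, n = 4 each), and the lowest mutant library, at 4.28 CPM, lay within the wt range of 3.72 to 5.19 CPM.

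In mDA neurons at 8 months, 7 of the 10 genes passed the filter on low counts, and 5 of the 7 rose in mutants at an edgeR adjusted p under 0.05, while 0 fell. Of all 15425 genes tested in that comparison, 376 rose, which is 2.44%, and 1.88% fell. The median log2 fold change of the 7 genes was 4.16, against 0.0158 over all genes tested. Without a filter, 7 of the 10 rose, against 1.62% of 23945 genes. For 6 of the 10 every mutant library lay above every wt library, which held for 0.594% of the 24564 genes of the table. Genes that pass the filter because they are high in 1 group had to differ, so these shares describe the comparison and are no test of the 10 as a set. Within sequencing set 1 alone (4 mutants and 4 wt) 7 of the 10 rose, against 459 of all 13931 genes tested there. Within set 2 alone (4 mutants and 2 wt) 1 did, Dlx5 (log2 fold change 7.33, edgeR adjusted p = 0.0460), against 41 of all 17058 genes. The other 4 called genes kept log2 fold changes of 2.996 to 4.80 in set 2. These single-set fits had no term for sex, and sex was not balanced between mutants and wt within either set. The third set held wt libraries only at 8 months. With set as a term, these wt libraries entered the spread but not the fold changes of the main fit.

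Among the interneuron factors, Dlx5 showed the largest log2 fold change of the 7 tested. Its level in mDA mutants at 8 months had a lowest value of 3.03, a median of 8.39 and a highest value of 13.1 CPM, against 0, 0.0423 and 0.464 CPM in mDA wt. Every mutant library lay above every wt library. The log2 fold change was 6.38 (SE 0.93, edgeR adjusted p = 6.13e-06), and the pooled counts, 513 in mutants against 5 in wt, gave a ratio of 75.1 with a 95% counting interval of 32.0 to 232.2. Its neighbour Dlx6 was the most even of the 10 among mutants, at 6.25, 7.64 and 9.54 CPM (lowest, median and highest), against 0, 0.556 and 1.80 CPM in wt. The groups again did not overlap, and Dlx6 rose by a log2 fold change of 4.198 (SE 0.87, edgeR adjusted p = 0.00143).

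Dlx2 and Dlx1, the other forebrain pair, also rose in mDA mutants at 8 months. Dlx2 had values of 1.86, 4.61 and 27.9 CPM (lowest, median and highest) in mutants, against 0, 0.490 and 1.04 CPM in wt. A single mutant library, D161, carried the highest value, and the other 7 lay between 1.86 and 8.22 CPM, still above all wt libraries. The log2 fold change of Dlx2 was 4.16 (SE 0.87, edgeR adjusted p = 0.00179), and without D161 it was 3.52. Dlx1 stood at 4.96, 12.2 and 13.5 CPM in mutants, against 0, 1.40 and 4.12 CPM in wt, so that the groups did not overlap but came within 1 CPM of each other. Dlx1 rose by a log2 fold change of 2.81 (SE 0.83), with an edgeR adjusted p of 0.0392 close to the threshold. The call of Dlx1 was lost when any 1 of 6 libraries was left out (wt C45, C49, C51 and D147, mutants D265 and D276), with adjusted p-values of 0.0625 to 0.0921 and log2 fold changes of 2.41 to 2.79.

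Dlx3 and Dlx4, the pair outside the forebrain programme, did not pass the filter in the mDA libraries and were tested only without it. Dlx4 stood at 0.318, 2.71 and 6.92 CPM (lowest, median and highest) in mDA mutants at 8 months, while 7 of the 8 wt libraries were at 0 and the eighth, C49, at 1.04 CPM. The 4 mutant libraries of sequencing set 1 lay at 3.44 CPM or above and the 4 of set 2 at 1.98 CPM or below. The log2 fold change of Dlx4 in the fit without a filter was 4.38 (SE 1.24, edgeR adjusted p = 0.0361). That call was lost when any 1 of 8 libraries was left out (wt C45, C47, C51, D107 and D147, mutants D265, D282 and C42), with adjusted p-values of 0.0532 to 0.0899. Without C49 the log2 fold change was 6.55 (adjusted p = 0.00557). Dlx3 ranged over 0, 0.984 and 8.41 CPM in mutants, against 0, 0.116 and 0.773 CPM in wt, with overlapping groups and a log2 fold change of 2.25 that did not pass (SE 1.18, edgeR adjusted p = 0.362 without a filter).

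Nkx2-1, which in the forebrain specifies interneurons of the medial ganglionic eminence, rose in mDA mutants at 8 months. Its values in those mutants were 5.83, 8.67 and 17.2 CPM (lowest, median and highest), against 0, 0 and 0.678 CPM in mDA wt. No wt library came near the mutant range, and Nkx2-1 rose by a log2 fold change of 5.36 (SE 0.86, edgeR adjusted p = 3.57e-05). The heart factor Nkx2-5 had values of 0.872, 3.21 and 7.22 CPM in mutants and was at 0 in all 8 wt libraries. With 182 mutant counts in all against 0, it was at least 44.4-fold higher in mutants, measured against a floor of 3 counts over the wt group. It did not pass the filter, and the edgeR adjusted p without a filter was 0.000405, while the fitted log2 fold change of 7.32 depends on the prior count and is no bound.

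Nkx6-1 and Nkx6-2 did not pass the test in mDA neurons at 8 months. Nkx6-1 stood at 0.748, 2.60 and 4.74 CPM (lowest, median and highest) in mutants, against 0, 0.231 and 1.78 CPM in wt, and 6 of 8 mutant libraries lay above the highest wt library. Its log2 fold change was 2.02 (SE 0.95, edgeR adjusted p = 0.252). Nkx6-2 stood at 1.68, 5.23 and 10.5 CPM in mutants, against 0.689, 2.21 and 4.90 CPM in wt, and was the member with the highest mean level in wt. Its log2 fold change was 1.04 (SE 0.59, edgeR adjusted p = 0.366). As Nkx6-2 is used by oligodendrocytes, the summed level of 15 oligodendrocyte markers is given beside it: a median of 1149.1 CPM in mDA mutants at 8 months and 717.3 CPM in mDA wt, with overlapping ranges of 502.5 to 1467.8 and 533.0 to 1048.2 CPM. Of the 15 markers, 11 had positive log2 fold changes there, edgeR called 1 higher, and 6 had an unadjusted p under 0.05. At 4 months 0 of the 15 were positive, edgeR called 1 lower, and 7 had an unadjusted p under 0.05. Nkx6-2 had a log2 fold change of -0.58 at that age. The part of oligodendrocytes in the Nkx6-2 values was not tested.

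**Figure D2:**
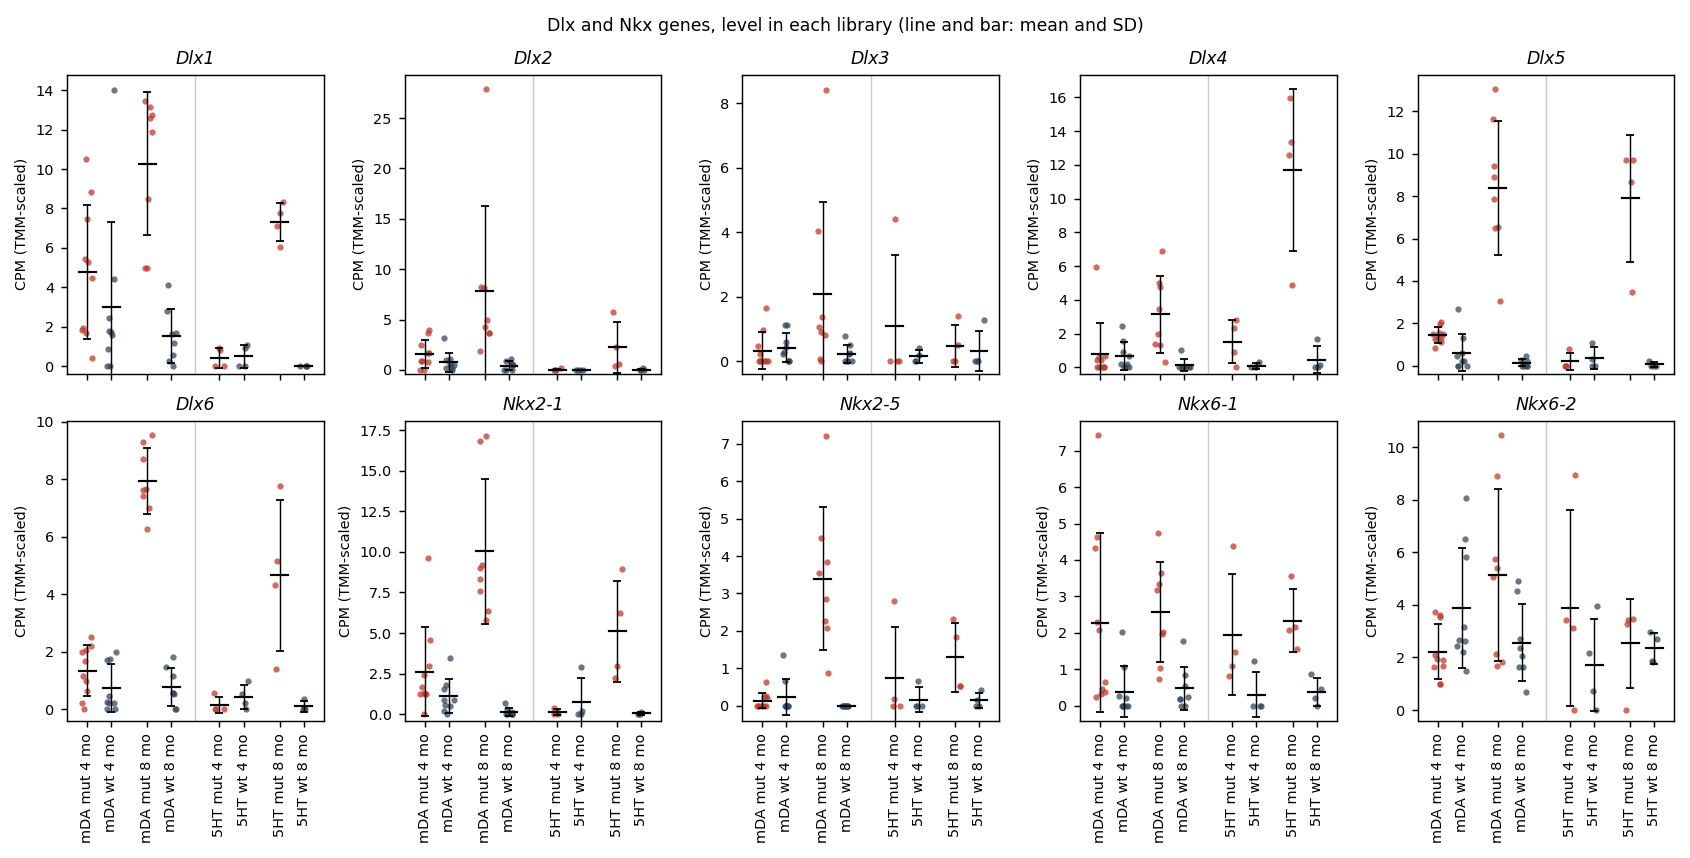
Level of each of the 10 genes in CPM in every library, by group (red, PRC2 mutant; grey-blue, wt), with lines and bars for the mean and SD and a separate axis for each gene. In mDA mutants at 8 months Dlx6 lies within 6.25 to 9.54 CPM while Dlx2 reaches 27.9 CPM in 1 library, and Nkx2-5 is at 0 in all 8 wt libraries of that age.

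In 5HT neurons at 8 months, 6 of the 10 genes passed the filter and 1, Dlx1, rose in mutants, while 0 fell. Over all 15633 genes tested there, 39 rose, which is 0.249%, and 0.147% fell. The number that rose was 17 without wt S383, 18 without wt S385, 20 without mutant S447, 22 without wt S382 and 26 to 31 without any other 1 library, against 124 with DESeq2. At an unadjusted p under 0.05, 4 of the 6 were higher (Dlx1, Dlx4, Dlx5 and Nkx2-1), and DESeq2 called the same number, 4. The median log2 fold change of the 6 genes was 5.73, against 0.00713 over all genes tested. As in mDA neurons, genes that pass the filter because they are high in 1 group had to differ. The shares and this median are therefore no test of the 10 as a set. Pooled wt counts were 0 for Dlx1 and 1 each for Dlx5 and Nkx2-1, so their fitted fold changes depend on the prior count. For 8 of the 10 every mutant library lay above every wt library, which held for 2.85% of the table's genes. The 5HT groups had 4 libraries each, and their fit had a larger biological coefficient of variation (0.546) than that of the mDA libraries (0.403).

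Dlx1 had values of 6.05, 7.10, 7.79 and 8.33 CPM in the 5HT mutants at 8 months and was at 0 in all 4 wt libraries. With 0 wt counts, Dlx1 was at least 54.9-fold higher in mutants against a floor of 3 counts over the wt group. The edgeR adjusted p was 0.0236, and the fitted log2 fold change of 9.49 depends on the prior count. The call was lost without any 1 of 6 libraries (wt S381, S382, S383 and S385, mutants S442 and S443), at adjusted p-values of 0.0668 to 0.115, while the mutant values themselves were the most even of the 10 genes in that group.

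Dlx5 stood at 3.48, 8.69, 9.70 and 9.71 CPM in the 5HT mutants at 8 months, against 0, 0, 0 and 0.208 CPM in wt. Mutants and wt were far apart, with pooled counts of 189 against 1 and a ratio of 177.9 (95% counting interval 31.5 to 7063), but the edgeR adjusted p was 0.0838. Without a filter Dlx5 was called, at an adjusted p of 0.0488, in a fit that called 0.224% of 23626 genes higher. Dlx6 had values of 1.39, 4.33, 5.14 and 7.76 CPM in mutants, against 0, 0, 0 and 0.361 CPM in wt. It was left out by the filter and did not pass without it (log2 fold change 5.33, SE 1.78, edgeR adjusted p = 0.405). Dlx2 was uneven, at 0.346, 0.620, 2.26 and 5.80 CPM in mutants, against 0, 0, 0 and 0.153 CPM in wt. Its pooled counts of 54 against 1 gave a ratio of 50.8 (95% counting interval 8.74 to 2044), and it did not pass without a filter (edgeR adjusted p = 0.695).

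Dlx4 was the member with the highest mean level in 5HT mutants at 8 months. Its values were 4.86, 12.6, 13.3 and 15.98 CPM in mutants, against 0, 0, 0.153 and 1.66 CPM in wt. The groups did not overlap, and the log2 fold change was 5.19 (SE 1.42, edgeR adjusted p = 0.174). Dlx3 was at 0, 0, 0.497 and 1.39 CPM in mutants, against 0, 0, 0 and 1.26 CPM in wt, and no difference was detectable at this depth.

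Nkx2-1 had 2.26, 2.95, 6.24 and 8.95 CPM in the 5HT mutants at 8 months, against 0, 0, 0 and 0.153 CPM in wt. Its pooled counts of 122 against 1 gave a ratio of 114.8 (95% counting interval 20.2 to 4572), and the log2 fold change of 6.27 did not pass (SE 1.80, edgeR adjusted p = 0.219). Nkx2-5 had 0.520, 0.520, 1.82 and 2.33 CPM in mutants, against 0, 0, 0.153 and 0.416 CPM in wt, with pooled counts of 32 against 3 and a ratio of 10.04 (95% counting interval 3.14 to 51.2). Both genes kept mutants and wt apart, for Nkx2-5 by less than what 1 read stood for in the wt libraries. Nkx6-1 had 1.56, 2.08, 2.16 and 3.57 CPM in mutants, against 0, 0.208, 0.458 and 0.874 CPM in wt (log2 fold change 2.47, SE 1.39, edgeR adjusted p = 0.9997). Nkx6-2 had 0, 3.29, 3.41 and 3.47 CPM in mutants, against 1.83, 1.87, 2.71 and 2.97 CPM in wt, and was the only member with a negative log2 fold change there, of -0.21 (SE 1.25, edgeR adjusted p = 0.9997).

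**Figure D3:**
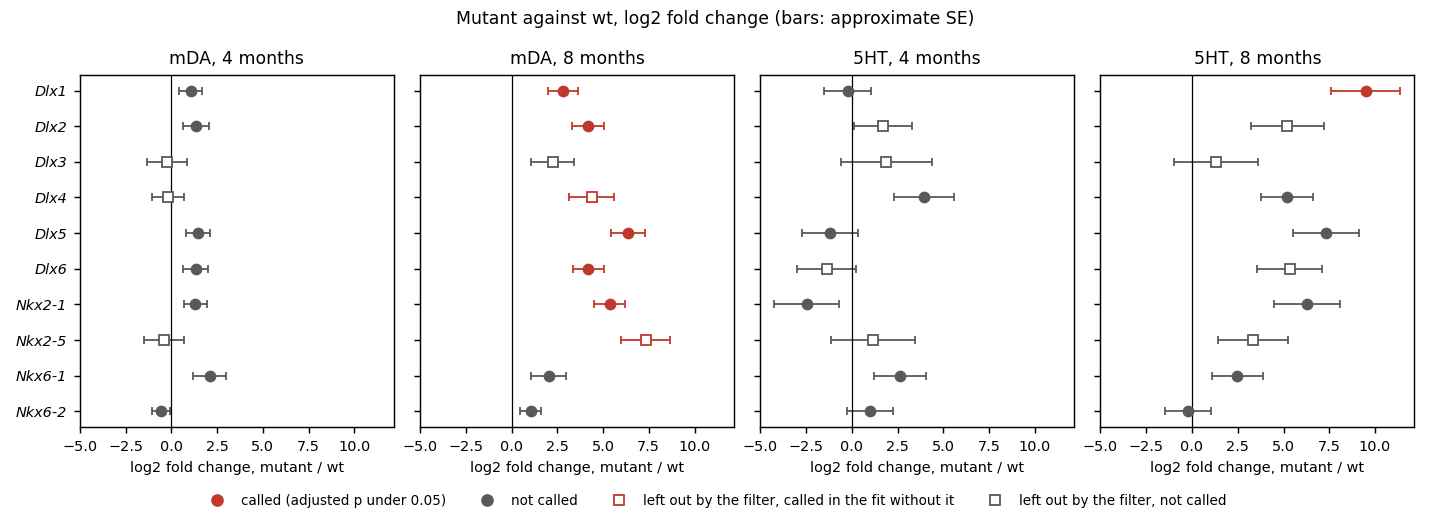
Log2 fold change, PRC2 mutant over wt, of the 10 genes in mDA and 5HT neurons at 4 and 8 months, with approximate standard errors as bars (filled, passed the filter; open squares, fit without a filter; red, adjusted p under 0.05). Called genes appear at 8 months: Dlx1, Dlx2, Dlx5, Dlx6 and Nkx2-1 in mDA neurons, with Dlx4 and Nkx2-5 in the fit without a filter, and Dlx1 in 5HT neurons.

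At 4 months no member passed the test in either cell type. In mDA neurons 0 of 7 tested genes were called, against 0.577% of 15425 genes called higher (89 higher and 92 lower, or 96 and 56 with RLE scaling). DESeq2 also called 0, and 3 were higher at an unadjusted p under 0.05 (Dlx5, Nkx2-1 and Nkx6-1). Of the 7 log2 fold changes 6 were positive, from 1.06 for Dlx1 to 2.10 for Nkx6-1, and the lowest adjusted p was 0.258. Dlx5 was above 0 in all 10 mDA mutants, with 0.843, 1.40 and 2.07 CPM as lowest, median and highest, against 0, 0.224 and 2.65 CPM in the 9 mDA wt libraries. Of the wt libraries, D295 at 1.31 CPM and C240 at 2.65 CPM lay within or above the mutant range of Dlx5, and the other 7 lay below it. Dlx1 reached 10.5 CPM in 1 mutant and 14.0 CPM in 1 wt library (D294), and Nkx6-1 ran over 0.245, 1.37 and 7.42 CPM in mutants, against 0, 0 and 2.01 CPM in wt. Mutants and wt overlapped for all 10 genes, and stood apart with mutants higher for 0.0489% of the table's genes. In sequencing set 1 at 4 months all mutants were female and all wt male, and in set 3 the reverse held. Sex and genotype therefore cannot be told apart within either of these sets, and only set 2 held both sexes in both genotypes. Within set 1 the log2 fold change of Dlx1 was -0.61.

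In 5HT neurons at 4 months 0 of 6 tested genes were called, against 0.0128% of 15633 genes called higher. DESeq2 called 0, and Dlx4 alone was higher at an unadjusted p under 0.05. Dlx4 had 0, 0.932, 2.34 and 2.80 CPM in mutants, against 0, 0, 0 and 0.325 CPM in wt (log2 fold change 3.95, SE 1.63, edgeR adjusted p = 0.721). Nkx6-1 had 0.824, 1.09, 1.49 and 4.40 CPM in mutants, against 0, 0, 0 and 1.24 CPM in wt. The groups overlapped for both genes, through 1 mutant library at 0 for Dlx4 and 1 wt library for Nkx6-1. Dlx1, Dlx2, Dlx5, Dlx6 and Nkx2-1 were at 0 in at least 2 of the 4 mutants and below 1 CPM in the others. Their values at 4 months gave no detectable difference at this depth.

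The size of the genotype effect at 8 months was compared with that at 4 months within each cell type. In mDA neurons 2 of the 7 tested genes had a larger effect at 8 months, against 3.76% of 15425 genes. Those 580 genes became 66 without the sex term, 347 without the set term, at most 390 without either wt C47 or wt C51, and 36 without the 4 mutants of set 1 at 4 months. Dlx5 differed by 4.93 on the log2 scale (SE 1.10, edgeR adjusted p = 0.00563) and Nkx2-1 by 4.05 (SE 1.01, edgeR adjusted p = 0.0128). Both differences hold lower wt values at 8 months as well as higher mutant values. In the age comparisons given below, Nkx2-1 changed by 1.60 in mutants (edgeR adjusted p = 0.116) and by -2.40 in wt (adjusted p = 0.462). Dlx5 changed by 2.36 in mutants (adjusted p = 0.0171) and by -1.99 in wt (adjusted p = 0.551). Without a filter Nkx2-5 differed as well, by 7.73 (SE 1.81, edgeR adjusted p = 0.0108), as 2.18% of genes did in that fit. Its pooled counts were 0 in wt at 8 months, and 4 in mutants and 10 in wt at 4 months. The size of 7.73 therefore depends on the prior count and a few reads. Dlx2 (2.80, adjusted p = 0.110) and Dlx6 (2.86, adjusted p = 0.0969) did not pass, and Nkx6-1 had a difference of -0.08, from log2 fold changes of 2.02 at 8 months and 2.10 at 4 months. Without the 4 mutants of set 1 at 4 months, Dlx5 and Nkx2-1 did not pass (adjusted p = 0.0919 and 0.122) at differences of 4.83 and 3.82, and Nkx2-5, which then passed the filter, was the 1 member called. In 5HT neurons 0 of 6 genes passed for a larger effect at 8 months, as did 0% of 15633 genes, although 3 (Dlx1, Dlx5 and Nkx2-1) had an unadjusted p under 0.05 and DESeq2 called 1.

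Age was also compared within each genotype, where the ages share no libraries. Age and library preparation therefore cannot be told apart in either cell type. Totals of mDA mutants ran from 1654667 to 4587312 counts at 4 months and from 4312167 to 11896342 counts at 8 months. In mDA mutants, Dlx5 and Dlx6 rose at 8 months relative to 4 months, 2 of 7 tested genes against 4.73% of 15425 genes, or 730 genes, which became 231 without the 4 set 1 mutants at 4 months. Dlx5 had a median of 8.39 CPM at 8 months and 1.40 CPM at 4 months and a log2 fold change of 2.36 (SE 0.64, edgeR adjusted p = 0.0171). Dlx6 had medians of 7.64 CPM at 8 months and 1.42 CPM at 4 months and a log2 fold change of 2.42 (SE 0.66, edgeR adjusted p = 0.0173). Nkx2-5 stood at 0.872 CPM or above in the 8 mDA mutants at 8 months, against 0.619 CPM or below in the 10 at 4 months, where 0.619 CPM was 1 read. Without a filter its edgeR adjusted p was 0.0107, where 3.35% of genes were called higher. For these 3 genes the ages did not overlap, which held for 0.281% of the table's genes. Without the 4 set 1 mutants at 4 months 0 of the members passed. In mDA wt 0 of 7 genes differed between the ages, 2 (Dlx5 and Nkx2-1) were lower at 8 months at an unadjusted p under 0.05, and DESeq2 called 0, with 0% of all genes called by edgeR.

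In 5HT mutants 0 of 6 genes passed between 8 and 4 months, where 0.115% of genes were called higher. Those 18 genes became 5 without S446, 6 without S443 or S447, 7 without S442 or S426, 9 without S429 and 10 without S425, against 117 with DESeq2. At an unadjusted p under 0.05, 4 were higher at 8 months (Dlx1, Dlx4, Dlx5 and Nkx2-1), DESeq2 called 2, and for 6 of the 10 the ages did not overlap, which held for 3.07% of the table's genes. Dlx1, for example, was at 6.05 to 8.33 CPM in the 5HT mutants of 8 months, against 0, 0, 0.799 and 0.938 CPM in those of 4 months. In 5HT wt 0 of 6 genes passed, 1 (Dlx1) was lower at 8 months at an unadjusted p under 0.05, and DESeq2 called 0, with 0% of all genes called by edgeR.

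The cell types were then set side by side. In mutants at 8 months Dlx4 was lower in mDA than in 5HT neurons, at 3.14 ± 2.27 CPM in mDA mutants (n = 8) and 11.7 ± 4.78 CPM in 5HT mutants (SD, n = 4), 1 of 9 tested genes, where 4.17% of 15372 genes were called lower (641 genes, or 379 without S447 and 389 without S443). The log2 fold change was -1.93 (SE 0.60, edgeR adjusted p = 0.0489). The call is at the threshold and was lost without a filter (adjusted p = 0.0511), without mDA mutant D176 and without any 1 of the 4 5HT mutants. The fit had no term for the sequencing set: all 4 5HT mutants were in set 1, at 4.86 to 15.98 CPM, and the mDA mutants stood at 3.44 to 6.91 CPM in set 1 and 0.318 to 1.98 CPM in set 2. Within set 1 alone, where the cell types overlapped, 0 of the members were called, so that a difference between cell types apart from the set is not shown. The other 8 tested genes did not pass. The differences between mDA and 5HT mutants ran from 0.08 for Dlx5 (8.38 ± 3.16 CPM in mDA mutants and 7.90 ± 2.98 CPM in 5HT mutants) to 1.67 for Dlx2 on the log2 scale. The mDA and 5HT libraries differ in strain as well as in cell type, so that these cannot be told apart.

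Whether the genotype effect itself differed between the cell types was tested in a fit of all 51 libraries. At 8 months 0 of 9 tested genes passed, where 0.179% of 18386 genes were called in either direction. Nkx2-5 had a larger and Dlx1 a smaller effect in mDA neurons at an unadjusted p under 0.05, and DESeq2 called 0. At 4 months 0 of 9 passed against 0.0925% of genes, with Nkx2-1 larger and Dlx4 smaller in mDA neurons at an unadjusted p under 0.05, and DESeq2 called 0. In wt neurons 2 of the 10 genes, Dlx1 and Nkx6-2, passed the filter for mDA against 5HT, and neither was called, whereas 19.9% of 16178 genes were. Dlx1 had an unadjusted p under 0.05, at a log2 fold change of 2.80 (SE 1.08, edgeR adjusted p = 0.0620), and DESeq2 called 1. Without a filter Dlx2 was higher in mDA wt, at a log2 fold change of 3.10 (edgeR adjusted p = 0.0388), as 7.48% of genes were, with at most 3.15 CPM in any mDA wt library and at most 0.153 CPM in any 5HT wt library.

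Levels can be compared between genes only per length, here as CPM per kb of annotated exon. In mDA mutants at 8 months the order began with Dlx5 at 3.70 ± 1.40, Nkx2-1 at 3.53 ± 1.57 and Dlx6 at 3.34 ± 0.48 CPM per kb, followed by Dlx2 at 2.74 ± 2.94 and Nkx6-2 at 2.6997 ± 1.72. It ended with Dlx4 at 0.960 ± 0.693, Nkx6-1 at 0.823 ± 0.436 and Dlx3 at 0.798 ± 1.09 CPM per kb (SD, n = 8). Dlx1 in the seventh place, at 1.91 ± 0.67, and Dlx4 in the eighth differed by more than either SD, and each other pair of neighbours by less than at least 1 of their SDs. In mDA wt of the same age the first place belonged to Nkx6-2, at 1.34 CPM per kb, and no other gene exceeded 0.32. In 5HT mutants at 8 months Dlx4 came first at 3.58 ± 1.46 and Dlx5 second at 3.49 ± 1.32 CPM per kb, and Dlx3 last at 0.181 ± 0.251 (SD, n = 4). The order between the cell types thus differed most in the place of Dlx4, the eighth in mDA mutants and the first in 5HT mutants.

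Noncoding RNAs are transcribed beside several of these genes, and 6 of the 7 listed had an entry in the table. The RNA listed there as E030019B13Rik, which lies 2.5 kb downstream of Nkx2-1 on the same strand and shares 0 exon bases with it, rose in mDA mutants at 8 months. It averaged 17.9 ± 7.25 CPM in mDA mutants and 0.751 ± 0.795 CPM in mDA wt (SD, n = 8 each), a log2 fold change of 4.13 (SE 0.65, edgeR adjusted p = 2.43e-05). In 5HT neurons at 8 months it averaged 15.3 ± 3.48 CPM in mutants and 0.303 ± 0.293 CPM in wt (SD, n = 4 each), which did not pass (edgeR adjusted p = 0.0810, and 0.0213 without a filter). It was the only 1 of 3 tested RNAs called in mDA neurons at 8 months. A730090H04Rik, which runs opposite to Dlx4 and shares 79 exon bases with it, averaged 3.58 ± 2.66 CPM in mDA mutants and 0.158 ± 0.383 CPM in mDA wt at 8 months and was called without a filter (log2 fold change 5.85, edgeR adjusted p = 0.00182). Dlx6os1 (10.3 ± 8.09 CPM in mutants and 3.47 ± 5.25 CPM in wt, adjusted p = 0.185), Dlx1as, Dlx6as2 and Nkx2-2os did not pass. Smart-seq2 does not mark the strand, so reads in the bases that antisense partners share (335 of Dlx1, 104 of Dlx6 and 79 of Dlx4, or 6.2%, 4.4% and 2.4% of their exon bases) cannot be assigned to either.

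The 2 nearest genes on each side of the 7 loci, 28 in all, of which 22 were tested, were read beside the 10 genes. The listed noncoding RNAs described above were left out of these neighbours. In mDA neurons at 8 months 1 of the 22 rose, Itga6, an integrin subunit gene 240.1 kb from the Dlx1-Dlx2 pair (log2 fold change 1.63, edgeR adjusted p = 0.0441), and 0 fell. In the other 3 genotype comparisons edgeR and DESeq2 each called 0 of the 22, and at an unadjusted p under 0.05 there were 3 in mDA neurons at 4 months, 0 in 5HT neurons at 4 months and 1 in 5HT neurons at 8 months. Metap1d, whose end lies 2.9 kb from Dlx1, had a log2 fold change of -0.08 (edgeR adjusted p = 0.873) where Dlx1 had 2.81. Mbip, the nearest tested gene to Nkx2-1, had -0.14 (adjusted p = 0.768), and Acn9, the nearest tested gene to Dlx5, had 0.17 (adjusted p = 0.874).

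**Figure D4:**
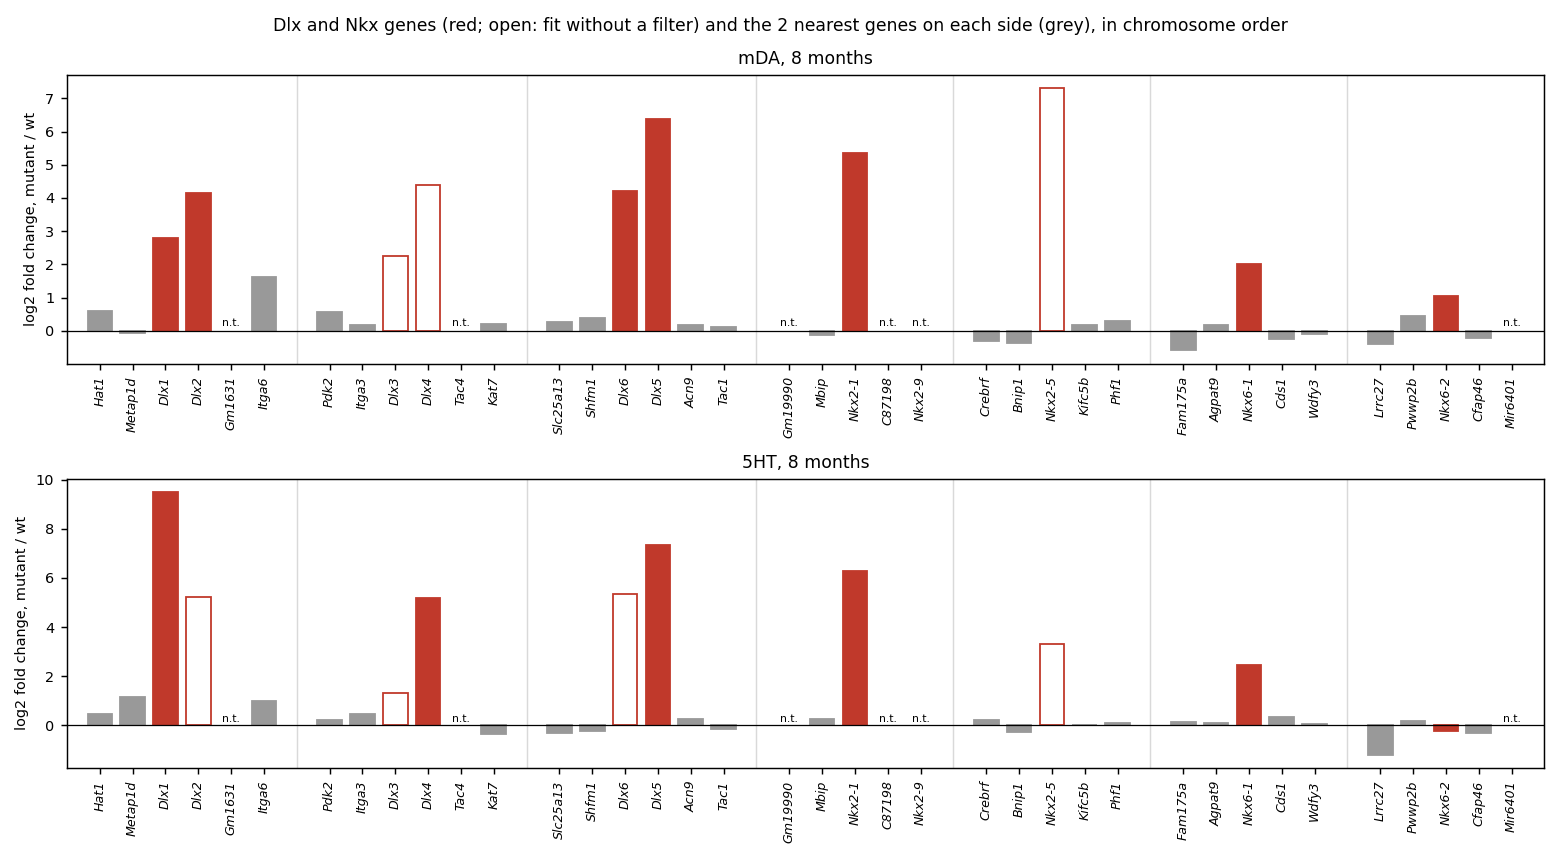
Log2 fold change, PRC2 mutant over wt, at 8 months in mDA (top) and 5HT (bottom) neurons for the Dlx and Nkx genes (red; open bars, fit without a filter) and the 2 nearest genes on each side (grey), in chromosome order with gaps between loci (n.t., not tested). The listed noncoding RNAs are not among the grey bars. The grey bars stay at 1.63 or below in mDA neurons, where Dlx5 reaches 6.38.

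Other genes of the same families and programmes were read from lists. Of 13 other NKX-type genes 4 were tested in mDA neurons at 8 months and 3 rose, 0 fell. Nkx2-3, a gut and spleen factor, averaged 18.2 ± 7.01 CPM in mDA mutants and 0.111 ± 0.313 CPM in mDA wt (SD, n = 8 each; log2 fold change 5.92, edgeR adjusted p = 1.19e-05). Nkx2-2, which patterns the ventral neural tube, rose by 3.58 (adjusted p = 0.0117) and Hmx1 by 4.56 (adjusted p = 0.0195) on the log2 scale. In 5HT neurons at 8 months edgeR called 0 of the 5 tested NKX-type genes, DESeq2 called 1, and 1 had an unadjusted p under 0.05.

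Of 24 forebrain GABA lineage factors, 20 were tested in mDA neurons at 8 months, 5 rose and 1 fell. Lhx6, which acts downstream of Nkx2-1 in interneurons, rose by 4.70 (edgeR adjusted p = 2.86e-05) and Isl1, a striatal and motor neuron factor, by 3.20 (adjusted p = 0.000148), while Satb1 fell by 0.70 on the log2 scale. At 4 months Lhx6 (2.59, edgeR adjusted p = 0.0262) and Satb1 (0.48, adjusted p = 0.0460) rose in mDA mutants, an age at which 0 of the 10 DLX and NKX genes passed. Over all genes, 89 were called higher in that comparison, 44 without the set term and 19 without the 4 mutants of set 1. Single genes of the lists were not followed in those fits. In 5HT mutants at 8 months 2 of 19 tested factors rose, Lhx6 (6.54, adjusted p = 0.00533) and Isl1 (5.502, adjusted p = 0.0302). The median log2 fold change of this list in mDA neurons at 8 months was 0.80, against 0.0158 over all genes.

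Of the 6 genes of GABA and glycine transmission, all tested, 4 rose and 0 fell in mDA mutants at 8 months. The glycine transporter gene Slc6a5 averaged 92.8 ± 34.8 CPM in mDA mutants and 1.15 ± 1.08 CPM in mDA wt (SD, n = 8 each; log2 fold change 6.09, edgeR adjusted p = 1.62e-12). The GABA synthesis gene Gad1 rose by 2.76 (adjusted p = 6.85e-12) and the vesicular transporter gene Slc32a1 by 1.88 (adjusted p = 3.53e-07). In 5HT mutants at 8 months Slc32a1 (2.15, adjusted p = 0.0128) and Slc6a5 (2.98, adjusted p = 0.0149) rose. The summed level of 5 GABA neuron markers was 676.5 to 972.7 CPM in mDA mutants at 8 months, against 246.1 to 494.1 CPM in mDA wt, and 660.6 to 757.2 CPM in 5HT mutants, against 267.8 to 391.8 CPM in 5HT wt, with 0 of the 5 markers at 0 throughout a group. These sums move with the DLX genes, and the part of admixed GABA neurons in the result was not tested. Of 15 interneuron subtype genes 12 were tested in mDA neurons at 8 months and 1, Calb2, rose (1.22, adjusted p = 0.00542).

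Of 29 ventral neural tube factors, 23 were tested in mDA neurons at 8 months, 11 rose and 1, the midbrain factor En1, fell (by 1.54 on the log2 scale, edgeR adjusted p = 2.17e-09). Pax6, at 84.6 ± 19.8 CPM in mDA mutants and 6.94 ± 3.59 CPM in mDA wt (SD, n = 8 each), rose by 3.92 (adjusted p = 1.00e-11) and Gata2 by 3.36 (adjusted p = 4.48e-06). In 5HT mutants 2 of 20 rose, Isl2 (7.29, adjusted p = 0.00832) and Isl1. Of 19 branchial arch and bone factors, the setting in which Dlx3 to Dlx6 also act, 9 were tested and 4 rose in mDA mutants at 8 months, among them Pitx1 (6.13, adjusted p = 5.07e-08), Barx1 (5.13, adjusted p = 9.63e-07) and Hand2 (7.08, adjusted p = 3.53e-06). Pitx1 (3.87, adjusted p = 0.000179), Barx1 (3.27, adjusted p = 0.000778) and Hand2 (3.56, adjusted p = 0.0343) rose at 4 months too. These calls at 4 months were likewise not followed without the set term or without the 4 mutants of set 1. In 5HT mutants at 8 months 2 of 10 rose, Barx1 (8.14, adjusted p = 0.0111) and Pitx1 (6.92, adjusted p = 0.0298). Of 13 heart factors that work with Nkx2-5, 9 were tested in mDA neurons at 8 months and 3 rose: Hand2, Isl1 and Tbx5 (4.63, adjusted p = 0.000214). In 5HT neurons at 4 months edgeR and DESeq2 each called 0 of the 79 tested genes of the lists above, and 9 had an unadjusted p under 0.05.

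The astrocyte markers moved with the mDA comparison as well. Of 15 tested, 3 rose in mDA mutants at 8 months, and their sum had a median of 962.0 CPM in mutants (666.6 to 3183 CPM) and 560.9 CPM in wt (497.1 to 948.5 CPM). Mutant library D176 carried the highest sum, and without it the same number of DLX and NKX genes, 5, rose. Without wt library C250 the number was also 5. Set 3 held only wt libraries at 8 months and had its own term in the mDA fit. C250 therefore entered the spread but not the fold changes, and leaving it out is no check of them. Of 10 endothelial and mural markers 9 had positive log2 fold changes (median 1.53) and 1, Cldn5, a tight junction gene, rose (log2 fold change 4.55, edgeR adjusted p = 0.0364). Their sum ran from 7.44 to 689.6 CPM (median 26.6) in mDA mutants at 8 months, against 6.26 to 48.7 CPM (median 17.6) in mDA wt, which overlap. Of 8 markers of oligodendrocyte precursors 6 had positive values, but edgeR and DESeq2 each called 0 and 0 had an unadjusted p under 0.05, with sums of 37.6 to 129.3 CPM in mutants and 42.1 to 80.9 CPM in wt. None of these markers was at 0 throughout either group, and the part of these cells in the result was not tested.

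Across all 51 libraries, the genes whose log2 CPM followed a member most closely were taken for the 3 members with the highest mean log2 CPM. For Dlx1 these were Dlx5 (Pearson r 0.80), Isl1 (0.78) and Six6 (0.77), and for Nkx2-1 they were Foxd3 (0.82), Hoxa5 (0.82) and Dlx5 (0.81). For Nkx6-2 the highest values were lower, at 0.61 for Tprkb, 0.60 for Arrdc2 and 0.60 for Lpcat1. These values describe 51 libraries that share genotype, age, cell type and depth, and genes near the floor share sampling zeros.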

How the data were processed

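The data were a deposited table of raw read counts, made by the authors, with 51 library columns, of which 0 went unused. The submitters' processing notes name STAR 2.7.0a and the mouse genome mm10 (GRCm38). How reads were counted, and whether by strand, is "not given in the sources used here". Molecular tags were not used, so intervals and floors cover counting error only. A reporter entry, at most 0.00294% of a library, was left out. Groups, sequencing sets and sex follow the labels. There were 0 identical pairs of columns, and replicates differed by a chi-square per degree of freedom of at least 6.97. The labels name animals by number only, and p-values measure the spread between these libraries.

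Counts entered edgeR 4.0.16 under R 4.3.3 with TMM scaling. Genes were kept by filterByExpr (grouped, count of 10 or more), tested by robust quasi-likelihood and called at a Benjamini-Hochberg adjusted p under 0.05 over all genes tested. A single fit of 35 mDA libraries had terms for set (nested in age) and sex, another of 16 5HT libraries a term for sex, and a fit of all 51 libraries gave differences between cell types. Ages of mDA libraries were compared with set labels shared over ages, wt cell types in 25 wt libraries and mutant cell types in the 12 mutants of 8 months. Each SE was taken from the fold change and the F statistic (|log2 fold change| over root F), which is approximate. The prior count of log2 CPM was 2. Alternatives were DESeq2 1.42.0, other scaling, filters and terms, single sets and left-out libraries. Leaving out each mDA library of 8 months in turn, and the mutants of set 1 alone between cell types, were added after seeing the data. Simulated counts with known changes, but without effects of set or sex, were used to check the genotype comparisons within each cell type and age. The differences between effects and the other fits were not simulated.

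The 10 genes, the lists and the rule for named genes were chosen with earlier results of these data known. Named were Eed, the 10 genes, their listed noncoding RNAs and the 2 nearest genes on each side of a locus, those RNAs left out. Also named were up to 3 called genes with the smallest p per list, and the 3 genes with the highest Pearson r for 3 members. A gene of these lists that the rule names is not reported here. Satb1 and En1 were named as the only genes of their lists called lower. RefSeq accessions tied the listed names Dlx6os2, Dlx4os and Sfta3-ps to Dlx6as2, A730090H04Rik and E030019B13Rik. Promoters are RefSeq's (GRCm38.p6), and exons GENCODE's for GRCm38. Figures were drawn with matplotlib 3.10.9 in Python 3.11.15.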

Additional observations from a re-analysis of the deposited data

Results flagged for a closer look

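In 27 of the 77 combinations of a gene and a group with any spread, 1 library stood apart from the rest of its group by Dixon's test, where chance gives about 1 in 20. Of these, 17 were among the 38 combinations in groups of 4, where 1 library with a read among libraries at 0 is enough.

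In mDA mutants at 8 months, Dlx2 stood apart in D161 at 27.9 CPM. In mDA mutants at 4 months, Dlx4 did so in D187 at 5.94 CPM, Nkx2-1 in D192 at 9.63 CPM and Nkx2-5 in D238 at 0.619 CPM. In mDA wt at 8 months the libraries were C49 for Dlx4 (1.04 CPM) and D107 for Nkx2-1 (0.678 CPM). In mDA wt at 4 months, D294 stood apart for Dlx1 (14.0 CPM) and for Dlx2 (3.15 CPM), C240 for Dlx5 (2.65 CPM) and C248 for Nkx2-5 (1.35 CPM).

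In 5HT mutants at 8 months, S446 was the low library for Dlx5 (3.48 CPM) and for Nkx6-2 (0 CPM). In 5HT mutants at 4 months, S427 was high for Dlx3 (4.40 CPM), Dlx5 (0.799 CPM) and Nkx2-5 (2.80 CPM), S425 for Dlx2 (0.165 CPM) and S426 for Dlx6 (0.559 CPM). In 5HT wt at 8 months, S381 was high for Dlx4 (1.66 CPM) and Dlx5 (0.208 CPM), S382 for Dlx3 (1.26 CPM) and Dlx6 (0.361 CPM), and S383 for Dlx2 (0.153 CPM) and Nkx2-1 (0.153 CPM). In 5HT wt at 4 months, S369 was high for Dlx4 (0.325 CPM), Nkx2-1 (2.92 CPM) and Nkx2-5 (0.649 CPM), and S373 for Nkx6-1 (1.24 CPM).

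The genotype effect in mDA neurons differed between 8 and 4 months, by edgeR's test of the difference, for Dlx5 (4.93 on the log2 scale), Nkx2-1 (4.05) and, without a filter, Nkx2-5 (7.73). Lower wt values at 8 months entered each of these differences. For Nkx2-5, with 0 wt counts at 8 months, the size depends on the prior count.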

How the results depend on the processing

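Of the alternatives for single genes, 503 kept direction and side of the threshold, 8 newly passed, 31 no longer passed and 9 changed sign. Of the alternatives for counts of genes called, 143 stayed within 1.5 times and 28 did not. In mDA neurons at 8 months (5 called), 3 were called with the 2 groups fitted alone and 1 within set 2 alone, and leaving out 1 library gave 4 to 5. In 5HT neurons at 8 months (1 called), there were 2 without a filter, 0 without the sex term, 4 with DESeq2, 4 with the 2 groups alone, and 0 to 1 with 1 library left out. The larger mDA effect at 8 months (2 called) gave 1, Nkx2-5 and neither of those 2, without the 4 set 1 mutants of 4 months, and the larger 5HT effect (0 called) gave 1 with DESeq2. For age, mDA mutants (2 called) gave 4 with DESeq2 and 0 without those 4 mutants, and 5HT mutants (0 called) gave 2 with DESeq2. For wt mDA against wt 5HT (0 called) there was 1 without a filter, 1 without the sex term and 1 with DESeq2. For mDA against 5HT mutants (1 called) there were 0 without a filter, 0 without the sex term, 0 within set 1 alone (chosen after seeing the data) and 0 to 0 with D176 or any 5HT mutant left out. The cause of these differences was not tested.

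Signs changed for Dlx1 in mDA neurons at 4 months within set 1 alone (-0.61 on the log2 scale) and for Nkx6-2 in 5HT neurons at 8 months without the sex term (0.11). With 1 library left out, log2 fold changes in 5HT neurons at 4 months ran from -0.76 to 0.17 for Dlx1, from -3.97 to 0.46 for Dlx5 and from -3.25 to 0.89 for Nkx2-1. At 8 months they ran from -0.66 to 4.58 for Dlx3 (no filter) and from -1.14 to 0.27 for Nkx6-2. Over all genes in mDA neurons, the genes called higher numbered 89 at 4 months (4 to 674 over the alternatives) and 376 at 8 months (41 to 580).

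No paired analysis was possible because the replicate numbers are animal numbers that no 2 groups share. Depth limits the wt values, most of which rest on a few reads, and the groups of 4 limit the 5HT comparisons.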
